A study of Homo sapiens with 4 samples.

Results

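CD247, which encodes the zeta chain of the T-cell receptor, and PRF1, which encodes perforin, were followed in HUT78 cells treated with the compound CSH71 and in untreated HUT78 cells. They are 2 of the 14884 genes with a symbol in the array annotation, were chosen by symbol, and have 1 probe set each (16695994 for CD247 and 16715170 for PRF1). HUT78 is an established human cell line from cutaneous T-cell lymphoma. Total RNA was hybridised to 4 Affymetrix whole-transcript arrays, 1 sample on each, from 2 samples treated with CSH71 at 250 nM for 30 h and 2 untreated samples. Per the series text, the target of CSH71 is the lipid-binding domain in p38γ, a mitogen-activated protein kinase. All arrays come from this single line, and the untreated label names no vehicle and no culture time. The labels speak of duplicates without saying that these were separate cultures, and the spread behind the p-values may therefore be technical.

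The zeta chain is a homodimer that associates with the antigen-binding receptor chains and the CD3 chains at the T-cell surface. Its cytoplasmic tail carries tyrosine motifs that LCK phosphorylates and to which the kinase ZAP70 then binds, and in NK cells it also serves as the signalling chain of activating receptors. Perforin is stored in the granules of cytotoxic T cells and NK cells, is released at the contact with a target cell, and forms pores in the target membrane through which granzymes enter. Helper T cells usually hold little perforin, and the malignant cells of most cutaneous T-cell lymphomas derive from CD4+ T cells.

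The sequence around the start site of each gene is shown because it is where transcription factors of the ETS family, which also appear among the measured genes, could bind. Both sequences are RefSeq entries of build GRCh38.p14, 250 bases before the start and 50 from it on, given on the strand of the gene. The CD247 sequence is chr1:167518480-167518779, minus strand, and the PRF1 sequence is chr10:70602692-70602991, minus strand. Capitals mark the letters CAGGAAGT, an ETS-type sequence, or its reverse complement.
CD247: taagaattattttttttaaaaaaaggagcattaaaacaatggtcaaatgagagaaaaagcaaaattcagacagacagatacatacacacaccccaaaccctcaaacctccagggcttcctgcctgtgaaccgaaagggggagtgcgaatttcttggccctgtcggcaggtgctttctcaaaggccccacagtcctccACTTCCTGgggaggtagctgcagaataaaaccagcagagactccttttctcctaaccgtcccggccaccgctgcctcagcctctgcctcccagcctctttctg
PRF1: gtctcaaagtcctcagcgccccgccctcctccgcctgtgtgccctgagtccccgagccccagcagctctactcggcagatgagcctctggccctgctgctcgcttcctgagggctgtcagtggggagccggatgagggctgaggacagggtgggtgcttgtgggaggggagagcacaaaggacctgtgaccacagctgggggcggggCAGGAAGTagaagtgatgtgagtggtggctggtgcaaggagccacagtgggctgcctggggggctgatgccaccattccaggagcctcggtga

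Each sequence held these ETS-type letters at 1 place. In CD247 they lay on the opposite strand at bases -53 to -46 from the start, and in PRF1 on the strand of the gene at bases -43 to -36. Of 35116 RefSeq start regions of the same length, 3.08% held the letters on either strand. The ETS letters were chosen after both sequences had been read, so their presence in both is a description. Only these exact letters and their reverse complement were sought. Related letters such as gcttcctg, which both sequences hold, are therefore not marked. The RUNX-type letters TGTGGT were found at 1 place in PRF1 (bases -62 to -57, opposite strand), in 0 places in CD247 and in 13.1% of all start regions. The letters AGGTGTGA of T-box factors, TGANTCA of AP-1 and TTCNNNGAA of STAT factors were found in neither sequence, and in 0.98%, 7.71% and 7.66% of all start regions, counting both strands. None of these motif matches overlapped another in the 2 sequences.

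CD247 had intensities of 1020 and 1044 on CSH71 arrays 1 and 2, against 1415 and 1144 on untreated arrays 1 and 2. Both treated arrays lay below both untreated arrays, and the treated arrays lay close together while the untreated arrays stood apart. The mean was 1032 ± 16.4 in treated and 1280 ± 191 in untreated cells (SD, n = 2 each). On the scale of log2(intensity + 16), the difference of treated minus untreated was -0.30 ± 0.18 (SE), with a 95% interval of -0.73 to 0.14. Log2 differences are given as treated minus untreated ± SE throughout. The limma adjusted p over all 14884 genes was 0.999, so CD247 did not pass the threshold of 0.05. The interval did not include a 2-fold decrease of the probe set signal.

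PRF1 had intensities of 768 and 735 on CSH71 arrays 1 and 2, against 853 and 979 on untreated arrays 1 and 2. Here too the groups did not overlap, and the treated arrays were the closer pair. The mean was 751 ± 23.1 in treated and 916 ± 89.7 in untreated cells (SD, n = 2 each), and the log2 difference was -0.28 ± 0.17 (SE), with a 95% interval of -0.69 to 0.13. The limma adjusted p was 0.999. In RNA of a whole culture, fewer cells with a transcript and less transcript per cell cannot be told apart.

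**Figure D1:**
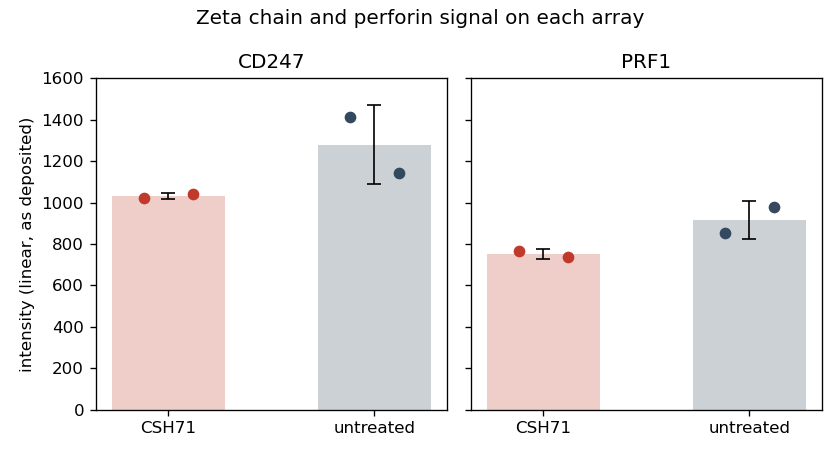
Deposited linear intensity (y axis) of CD247 and PRF1 in CSH71-treated and untreated HUT78 cells; points are single arrays, bars are means and error bars are SD (n = 2 each). For both genes the 2 treated arrays lie below the 2 untreated arrays, and the untreated arrays lie farther apart.

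Groups that do not overlap are common with 2 arrays each. Treated arrays lay below both untreated arrays for 16.6% of all genes, and the groups did not overlap in either direction for 31.6%. The exact permutation test over the 4 arrays gave a two-sided p of 0.333 for CD247 and for PRF1, the smallest that 2 against 2 allows. At the threshold, limma called 0 of the 2 genes, against 0.047% of all genes (7 of 14884; 6 or 0.0403% were higher and 1 or 0.00672% was lower with CSH71). At an unadjusted p under 0.05, limma had 0 of the 2, against 5.1% of all genes. The unadjusted p was 0.149 for CD247 and 0.154 for PRF1. The log2 difference was negative for 2 of the 2 genes, against 52% of all genes. A log2 difference below that of CD247 was found for 8.06% of all genes, and below that of PRF1 for 9.53%.

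**Figure D2:**
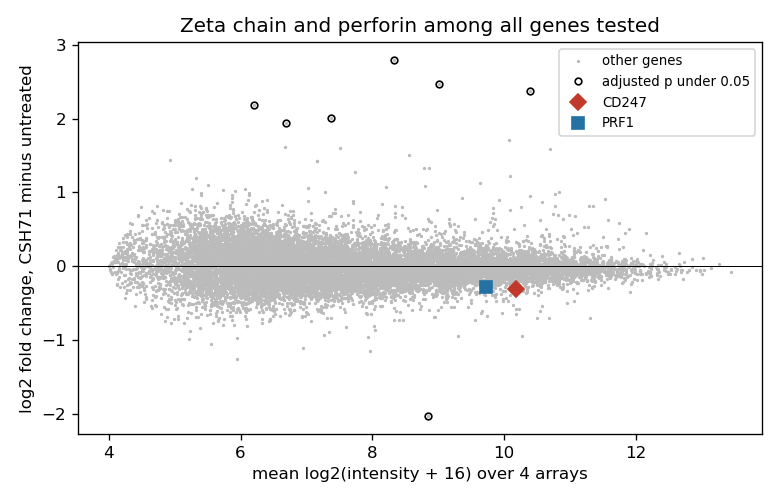
Log2 fold change of CSH71 minus untreated (y axis) against mean log2(intensity + 16) over the 4 arrays (x axis) for 14884 genes. CD247 at -0.30 and PRF1 at -0.28 lie within the lower part of the cloud at a bright mean level, apart from the 7 circled genes with a limma adjusted p under 0.05.

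The choice of arrays mattered for the size of both differences, and the untreated array concerned was not the same. For CD247, the log2 differences from untreated array 1 were -0.47 and -0.43 for CSH71 arrays 1 and 2, and those from untreated array 2 were -0.16 and -0.13. The untreated arrays themselves differed by 0.30 (array 1 minus array 2), as much as the difference between the groups. For PRF1, the log2 differences from untreated array 1 were -0.15 and -0.21 for CSH71 arrays 1 and 2, and those from untreated array 2 were -0.34 and -0.41. The untreated arrays differed by -0.20 (array 1 minus array 2), so CD247 was highest on untreated array 1 and PRF1 on untreated array 2. Without untreated replicate 1 the CD247 difference was -0.15, and without untreated replicate 2 the PRF1 difference was -0.18. The treated arrays differed by -0.03 for CD247 and 0.06 for PRF1 (array 1 minus array 2), against a median absolute difference of 0.19 over all genes.

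Both probe sets were bright. On the 4 arrays, 87.9% to 93.1% of the tested genes were dimmer than CD247 and 82.7% to 86.6% were dimmer than PRF1. These shares place the signals on each array and do not compare amounts of RNA, since probe sets differ in how strongly they bind. The values come with no detection call and no background level. The ranges of each gene's 4 intensities were 1020 to 1415 for CD247 and 735 to 979 for PRF1. In CD247 the order from high to low was untreated 1, untreated 2, CSH71 2 and CSH71 1, and in PRF1 it was untreated 2, untreated 1, CSH71 1 and CSH71 2. With a single array at each position, no neighbouring pair in either order can be called different. The SD of the arrays around their group means was 0.15 (log2) for CD247 and 0.10 for PRF1, against a median of 0.18 over all genes.

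The arrays hold a check of the labelled cell type in 5 of 9 listed T-cell markers. CD5, a surface receptor of T cells that dampens receptor signalling, had 2100 and 1986 on the CSH71 arrays, against 1729 and 1802 on the untreated arrays. CD4 had 441 and 384 with CSH71, against 403 and 452 untreated, and CD7, which is often lost in this lymphoma, had 286 and 273, against 232 and 354. CD2 and CD28 were dim, at 60.9 to 107 over all arrays and both genes. CD3D, CD3E, CD3G and TRAC were not analysed here, so the receptor chains that pair with zeta are not described. CD8A and CD8B, the coreceptor of cytotoxic T cells, had 88.8 to 145 over all arrays. The summed intensity of the 5 T-cell markers was 2995 and 2793 with CSH71, against 2524 and 2758 untreated, of which CD5 alone made up 65.4% to 71.1%. The other 4 markers summed to 895 and 806 with CSH71, against 795 and 956 untreated.

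Markers of other cells had 0 genes called, against 0.047% of all genes, and none at an intensity of 0. Without a background level their signal cannot be read as presence or absence. The NK-cell markers NCAM1 and NCR1, 2 of 5 listed, summed to 207 and 319 with CSH71, against 323 and 261 untreated. NCAM1 had 55.8 and 82.2, against 96.2 and 98.6, with groups that did not overlap (log2 difference -0.43 ± 0.20, limma adjusted p = 0.990). That difference was -0.21 without CSH71 replicate 1 and -0.66 without CSH71 replicate 2. The 4 monocyte markers summed to 357 and 447, against 489 and 370, and PAX5, the single B-cell marker measured of 5 listed, had 142 and 187, against 203 and 171. Of these, NCAM1 alone separated the groups in the direction of CD247 and PRF1, as 16.6% of all genes did, and its part in their values was not tested. The other NK-cell marker, NCR1, had 152 and 237 with CSH71, against 226 and 162 untreated, with groups that overlapped (-0.01 ± 0.26).

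The kinases and phosphatases that act next to the zeta chain showed no call. Of 15 listed, 8 were measured and 0 passed in either direction, against 0.047% of all genes. Of the 8, 7 had a negative and 1 a positive log2 difference, against 52% negative among all genes. The median was -0.14, against -0.01 over all genes. With so few of all genes called, 0 calls in a list this small say nothing particular about it. The same shares apply to the lists below. LCK, the kinase that phosphorylates the zeta chain, had 1157 and 1057 with CSH71, against 1018 and 1141 untreated. ZAP70, the kinase that binds the phosphorylated zeta chain, had 1829 and 1577, against 1708 and 1739. The groups overlapped for both, with log2 differences of 0.04 ± 0.17 for LCK and -0.02 ± 0.17 for ZAP70, and both signs turned when single arrays were left out.

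The smallest p in that list belonged to CSK, UBASH3B and TXK. CSK, which phosphorylates the inhibitory tyrosine of LCK, had 858 and 782 with CSH71, against 918 and 1054 untreated, a log2 difference of -0.26 ± 0.18. UBASH3B, a phosphatase that restrains receptor signalling, was at -0.25 ± 0.20, and TXK, a Tec-family kinase, at -0.14 ± 0.17. The groups did not overlap for CSK and TXK and overlapped for UBASH3B, and each had a limma adjusted p of 0.999. Without untreated replicate 2 the differences were -0.16 for CSK, -0.049 for UBASH3B and -0.045 for TXK.

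Adaptors and early effectors of the receptor were mixed. Of 18 listed, 12 were measured and 0 passed, with 4 positive and 8 negative log2 differences and a median of -0.05. LAT, the membrane adaptor phosphorylated by ZAP70, had 803 and 705 with CSH71, against 774 and 804 untreated (-0.07 ± 0.17, with a sign that turned without CSH71 replicate 2). SH2D2A, an adaptor that binds LCK, had 319 and 323, against 214 and 239, so its groups did not overlap and it lay on the other side of 0 from CD247 (0.48 ± 0.17, limma adjusted p = 0.928). RASGRP1, which activates Ras after receptor engagement, was at -0.28 ± 0.18 and SIT1, an inhibitory transmembrane adaptor, at -0.28 ± 0.21. Treated arrays lay below both untreated arrays for 4 of the 12 genes, RASGRP1 among them, against 16.6% of all genes. They lay above both for 1 of the 12, SH2D2A, against 15% of all genes. SIT1 was at -0.076 without untreated replicate 2 and -0.49 without untreated replicate 1.

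Coreceptors and costimulators had 10 of 10 genes measured and 0 passed, with 5 positive and 5 negative values and a median of 0.03. ICOS, an inducible costimulator of the CD28 family, had 885 and 886 with CSH71, against 1094 and 1153 untreated. Its log2 difference was -0.34 ± 0.17 with groups that did not overlap (limma adjusted p = 0.992). CD5 was at 0.21 ± 0.17, and CD4 at -0.05 ± 0.18 with a sign that turned without CSH71 replicate 2 or untreated replicate 2. CTLA4, an inhibitory receptor, was dim in all arrays (19.7 to 34.5).

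The zeta chain has further partners and relatives outside the T-cell receptor. NCR3, an activating receptor of NK cells that signals through the zeta chain, was bright here at 1641 and 1279 with CSH71, against 1556 and 1717 untreated. Its groups overlapped (-0.17 ± 0.19), and the sign turned without CSH71 replicate 2. TYROBP, an adaptor with the same kind of tyrosine motif, had 33.5 to 51.4, and HCST, an adaptor that signals through another motif, had 804 to 1221, the lowest and highest values both being CSH71 arrays. Of the 9 genes listed with these, 5 were measured, 0 passed and 5 were negative (against 52% of all genes), with a median of -0.05. CD2 stood in this list and in that of the coreceptors.

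Perforin was measured beside 7 other genes of cytotoxic granule contents, 8 of 12 listed. Of these 8, 0 passed, 5 were negative and 3 positive, with a median log2 difference of -0.10. CTSC, the protease that activates granzymes, had 876 and 942 with CSH71, against 1034 and 1276 untreated (-0.33 ± 0.18). CTSW, a cysteine protease of cytotoxic cells, had 460 and 403, against 464 and 496 (-0.15 ± 0.17). For CTSC and CTSW, as for PRF1, both treated arrays lay below both untreated arrays. This makes 3 of the 8 genes, PRF1 included, against 16.6% of all genes. The share was not particular to this list. It was also 3 of 8 for the kinases and phosphatases and for the membrane-attack family below. It was 4 of 12 for the adaptors and 5 of 13 for the transcription factors. For coreceptors and for granule exocytosis it was 1 of 10, for NK-cell receptors 1 of 6, and 0 of 5 for the list with NCR3. The size rested on single arrays, as CTSC was at -0.18 without untreated replicate 2 and CTSW at -0.059 without CSH71 replicate 2.

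The remaining granule genes were at or above their untreated level, or overlapped. SRGN, the proteoglycan serglycin that packs granule proteins, had 3587 and 3850 with CSH71, against 3208 and 3119 untreated (0.23 ± 0.17). GNLY, the membrane-lytic protein granulysin, had 528 and 473, against 409 and 440 (0.23 ± 0.17). Treated arrays lay above untreated arrays for both, opposite to PRF1, and GNLY was at 0.15 without CSH71 replicate 1. GZMK, a granzyme, was dim, at 37.9 and 44.4 with CSH71 and 32.6 and 30.9 untreated (0.26 ± 0.17). Its treated arrays also lay above its untreated arrays, which makes 3 of the 8 genes, against 15% of all genes. GZMM, another granzyme, had 90.4 and 112, against 139 and 88.8, and NKG7, a granule membrane protein, had 297 and 221, against 270 and 271. Both overlapped, and their signs turned with single arrays left out. The limma adjusted p was 0.999 for each of the 8. GZMA, GZMB and GZMH, the other granzymes listed, were not analysed here.

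The genes that bring perforin granules to the cell surface were led by LYST. Of 15 listed, 10 were measured and 0 passed, with 6 positive and 4 negative values and a median of 0.02. LYST, a regulator of lysosome-related granules whose loss gives Chediak-Higashi syndrome, had 1113 and 1107 with CSH71, against 676 and 726 untreated. Its groups stood well apart (log2 difference 0.65 ± 0.17), but the limma adjusted p was 0.928. It passed in 1 of 15 alternatives, where the variance prior followed intensity (adjusted p = 0.00025), and had values up to 1 in the others. In that fit a gene's variance was set by its intensity alone, so the spread of LYST between replicates did not count. STX11, a syntaxin of granule fusion, had 551 and 467, against 406 and 377 (0.36 ± 0.18, adjusted p = 0.992).

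UNC13D, which primes granules for fusion, had 1937 and 1913 with CSH71, against 1937 and 1892 untreated, a log2 difference of 0.01 ± 0.16 whose sign turned with single arrays left out. STXBP2, the binding partner of STX11, had 512 and 515, against 480 and 593 (-0.05 ± 0.18, with a sign that turned without untreated replicate 2). Inherited loss of PRF1, UNC13D, STX11 or STXBP2 causes the same disease of uncontrolled lymphocyte activation, familial haemophagocytic lymphohistiocytosis. VAMP8, a vesicle fusion protein, was at -0.24 ± 0.18 with groups that did not overlap, and at -0.16 without untreated replicate 2. RAB27A was not analysed here.

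**Figure D3:**
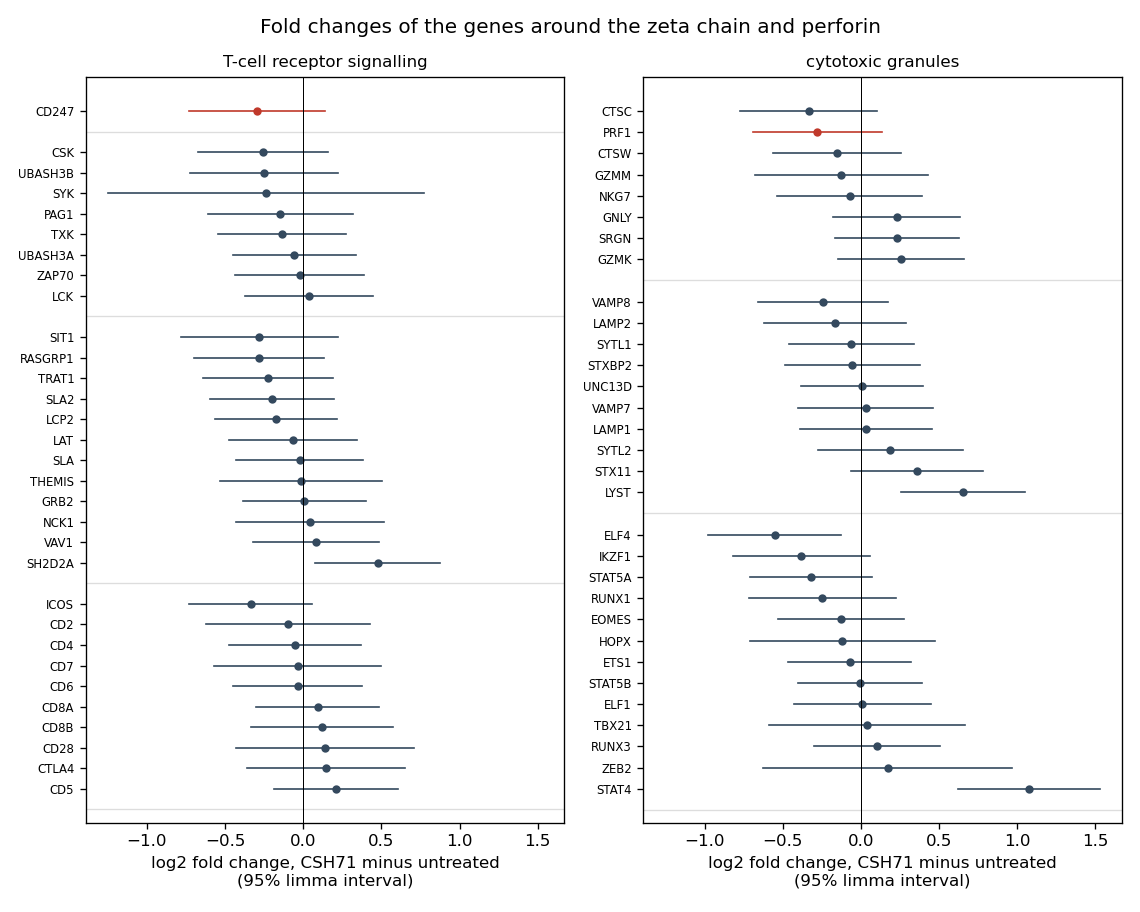
Log2 fold change of CSH71 minus untreated (x axis) with the 95% limma interval for the measured genes of 7 lists, in blocks from top to bottom: zeta chain, kinases and phosphatases, adaptors, coreceptors (left), and granule contents, granule exocytosis, transcription factors (right). CD247 and PRF1, in red, have intervals that include 0, and LYST at 0.65 and STAT4 at 1.08 lie farthest to the right.

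Perforin shares its membrane-attack domain with complement proteins and a few others, most of which gave dim signals. Of 12 listed, 8 were measured including PRF1 and 0 passed. Of the 8, 7 were negative (against 52% of all genes) and 1 positive, with a median of -0.16. C6, a component of the membrane attack complex, had 44.4 and 80.7 with CSH71, against 30.7 and 23.7 untreated (0.83 ± 0.25). ASTN2, a neuronal membrane protein, was at -0.46 ± 0.19, and MPEG1, the macrophage relative called perforin-2, at -0.37 ± 0.22. Limma adjusted p-values were 0.928 for C6, 0.973 for ASTN2 and 0.999 for MPEG1. C6 was at 0.49 without CSH71 replicate 2, ASTN2 at -0.30 without untreated replicate 2 and MPEG1 at -0.11 without untreated replicate 1.

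Among 13 measured of 16 listed transcription factors of cytotoxic lymphocytes, 0 passed, with 5 positive and 8 negative values and a median of -0.07. ELF4, an ETS factor that activates the perforin gene in mouse NK cells, had 513 and 426 with CSH71, against 677 and 709 untreated. Both treated arrays lay well below the untreated ones, with a log2 difference of -0.55 ± 0.18 and a limma adjusted p of 0.928. ELF1, an ETS factor known to activate the zeta chain gene in human T cells, had 3587 and 3331, against 3090 and 3814, and its groups overlapped (0.01 ± 0.19). IKZF1, the lymphoid factor Ikaros, was at -0.38 ± 0.18 (limma adjusted p = 0.992), and at -0.25 without CSH71 replicate 2.

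STAT4, which carries the interleukin-12 signal in T and NK cells, had 464 and 367 with CSH71, against 175 and 200 untreated. Its log2 difference of 1.08 ± 0.19 did not pass (limma adjusted p = 0.517), and it passed in 4 of 15 alternatives, with adjusted p from 8.78e-05 to 1. In 2 of those 4 fits, the replicate block and the prior that followed intensity, the spread of STAT4 between replicates did not count. EOMES and TBX21 are T-box factors that promote perforin expression in mouse CD8+ T cells. EOMES had 154 and 144 with CSH71, against 157 and 171 untreated, so its treated arrays were lower without overlap. TBX21 had 131 and 188, against 191 and 120, with groups that overlapped. RUNX3, a partner of EOMES in mouse CD8+ T cells, had 2584 and 2327, against 2235 and 2323, so its treated arrays were higher without overlap.

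NK-cell receptors as a list gave 6 measured of 15, 0 passed, 3 positive and 3 negative, with a median of 0.04. Beside NCAM1, the smallest p belonged to the inhibitory receptor TIGIT at 0.30 ± 0.21 and to CD160, a receptor of cytotoxic cells, at 0.25 ± 0.18. Both were dim, at 35.9 to 69.4 over all arrays. TIGIT was at 0.076 without untreated replicate 2, and CD160 at 0.15 without CSH71 replicate 1.

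Likeness of pattern was measured as the root mean square difference of log2 values over the 4 arrays, each gene centred on its own mean. It was taken over the 7441 other genes at or above the median level. The closest to CD247 were STARD4-AS1 (0.014), RTN4RL1 (0.022) and ZNF831 (0.028), against a median of 0.23 over these genes. The closest to PRF1 were PGLYRP4 (0.017), TRMT10A (0.019) and FAH (0.020), against a median of 0.16. CD247 and PRF1 differed from each other by 0.18, and 21.5% of these genes were closer to CD247 than PRF1 was, while 58.3% were closer to PRF1 than CD247 was. The genes named as closest were picked as the smallest of 7441 differences over only 4 arrays. Values far below the median follow from that selection. Whether other genes have neighbours as close was not tested.

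**Figure D4:**
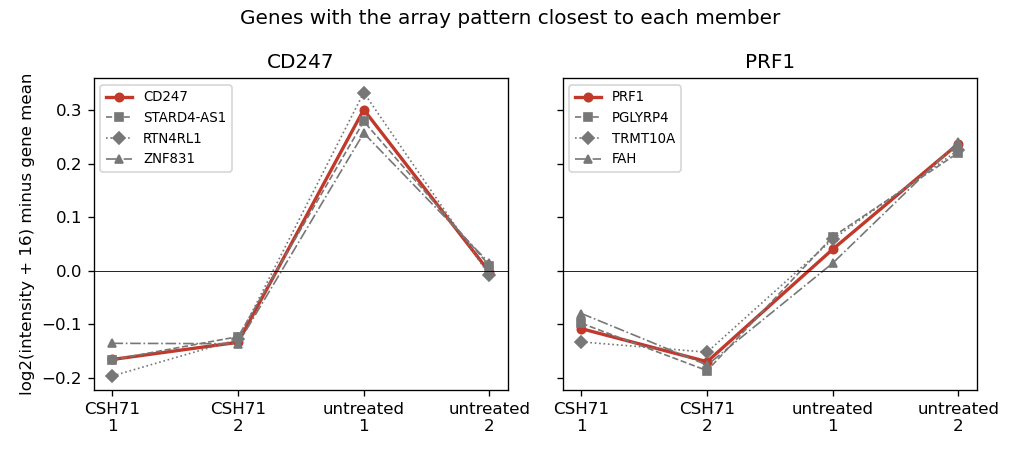
Log2(intensity + 16) minus the gene's own mean (y axis) on the 4 arrays (x axis) for CD247 and PRF1, in red, each with the 3 genes of the smallest root mean square difference, in grey; lines only join the values of a gene. CD247 peaks on untreated array 1 and PRF1 on untreated array 2. The grey genes were selected for closeness, so their likeness follows from the selection.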

How the data were processed

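The authors deposited 1 linear intensity per probe set and array, and Affymetrix Expression Console is named per the submitters' processing notes. The sources used here do not give its version or how background, summarisation and normalization were handled. Groups and replicate numbers were read from the sample titles. The array medians lay between 71.5 and 81.1, correlations between arrays of log2 values between 0.980 and 0.985. Precision is limited by having 4 arrays.

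Of 53617 probe sets, 16098 had 1 symbol in the platform annotation, 0 had several and 37519 had none. All 16098 entrez identifiers matched RefSeq (GRCh38.p14) and 0 symbols changed. For genes with several probe sets (779) the brightest was used. Values were transformed to log2(intensity + 16), which understates the change of dim genes, and compared with limma (version 3.58.1, R 4.3.3) with Benjamini-Hochberg adjustment over 14884 genes, calling at 0.05. Lists were described by counts and medians, with no set test. The naming rule took CD247, PRF1, all measured receptor chains and granule contents, up to 3 genes with the smallest p in each other list, the direct partners of both proteins, and the 3 genes closest in pattern. Other genes are shown as markers or after their values were seen (HCST, ELF1, EOMES, TBX21, RUNX3). Members and lists were chosen with earlier results of these data known.

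The fit was run on simulated data (10 runs, each of 14884 genes, 200 of them shifted). Their variances were drawn from the prior that the fit itself had estimated, with independent normal errors. The fit recovered 17.8% of 2-fold shifts and 94% of 4-fold shifts, with 7 false among 118.8 calls on average. Because the simulation followed the model of the fit, that false share cannot check the fit on these arrays. Shifts smaller than 2-fold, such as those of CD247 and PRF1, were not simulated, and recovery was not split by intensity. In the measured data, the prior that follows intensity gave an SE of 0.070 for the bright SRGN and 0.299 for the dim GZMK. The recovered shares therefore do not describe bright probe sets such as CD247 and PRF1. Figures used matplotlib 3.10.9. The alternatives are given in the closing section.

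Same-numbered arrays did not deviate together: the correlation of their deviations from the group means over all genes was -0.29. The median absolute log2 difference over all genes was 0.18 between CSH71 array 1 and untreated array 2. It was 0.17 between CSH71 array 2 and untreated array 1, and 0.21 and 0.24 between same-numbered arrays 1 and 2. Between the treated arrays it was 0.19, and between the untreated arrays 0.22. Each treated array was thus closer to the untreated array of the other number than to its own duplicate. This limits all group differences given here.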

Additional observations from a re-analysis of the deposited data

How the results depend on the processing

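CD247 and PRF1 had a negative log2 difference and missed the limma threshold in all 15 alternatives. CD247 ran from -0.45 to -0.15 (adjusted p from 0.491 to 1) and PRF1 from -0.38 to -0.18 (0.636 to 1). The extremes of the log2 differences came from leaving out single untreated arrays. The number of genes called, 7 as reported, was 27 with the replicate block (23 higher), 27 after median centring, 12 without the dimmest 40% of genes, 143 with a variance prior that follows intensity and 33 with a pseudocount of 64. With quantile-normalized values limma called 0 (964 genes had an unadjusted p under 0.05), as it did over all 53617 probe sets (0, with 2367) and with a pseudocount of 1 (0, with 768). With each array left out in turn it called 0 to 29: 29 without CSH71 replicate 1, 20 without CSH71 replicate 2, 0 without untreated replicate 1 (794) and 0 without untreated replicate 2 (609). The robust prior gave 7, and averaging probe sets gave 7. The cause of these differences was not tested.

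With the replicate number as a block, CD247 was at -0.30 ± 0.27 and PRF1 at -0.28 ± 0.27 (adjusted p of 1 for both). STAT4 then passed (0.0437), but that fit gave every gene the same variance (infinite prior degrees of freedom), whatever its replicates showed. The prior that follows intensity, with its 143 calls, likewise set variances without regard to a gene's replicates. In that fit the unadjusted limma p was 0.0125 for CD247 and 0.0449 for PRF1, and it was under 0.05 for 877 genes. Same-numbered arrays share only a number here, and a crossed pairing, added after the data were seen, called 0 genes (1288 at an unadjusted p under 0.05).

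Of 43 other genes named by rule, 12 changed sign when single arrays were left out, with ranges of -0.40 to 0.16 for GZMM, -0.27 to 0.13 for NKG7, -0.10 to 0.40 for CTLA4, -0.35 to 0.0058 for NCR3, -0.30 to 0.10 for CD2, -0.27 to 0.18 for TYROBP, -0.044 to 0.12 for LCK, -0.13 to 0.085 for ZAP70, -0.16 to 0.024 for LAT, -0.15 to 0.043 for CD4, -0.0091 to 0.025 for UNC13D and -0.20 to 0.095 for STXBP2. The cause was not tested. In 19 more of the 43 the sign held but the value moved by over 1.5 times; for the genes closest in pattern these were STARD4-AS1 (-0.42 to -0.15), RTN4RL1 (-0.49 to -0.15), ZNF831 (-0.39 to -0.15) and FAH (-0.37 to -0.14). LYST and STAT4 alone of the 43 crossed the threshold under an alternative. The values carry no background level, so for dim genes such as GZMK and C6 the signal over background is unknown.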
